A study of Mus musculus with 9 samples.

Results

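The Schlafen genes are a mouse gene family of which 7 members (*Slfn1*, *Slfn2*, *Slfn3*, *Slfn4*, *Slfn5*, *Slfn8* and *Slfn9*) were followed among the 24411 gene symbols of a bulk RNA-seq table of expanded macrophages. The family was chosen because *Slfn4* was among the largest rises in yolk sac lines over bone marrow lines, so all values of that comparison, and those of *Slfn4* in every comparison, are given as a description with no test. The 9 libraries came from 3 YS lines, 3 FL lines and 3 BM lines, which were macrophages grown from E9.5 yolk sac, E14.5 fetal liver and adult bone marrow of C57BL/6 mice. All of them depended on and were maintained with recombinant human M-CSF, the growth factor of macrophages, and the labels name no other treatment. Each line was a bulk culture that had outgrown from a separate dish or well, and the starting cells had been pooled from several mice, so lines of a group may share their source animals and the p-values measure the spread between lines. The deposited values were TPM (transcript abundance corrected for transcript length and scaled to the same sum in each library), from which log2(TPM + 1) was computed. In these bulk samples, fewer cells expressing a gene and less RNA per cell cannot be told apart.

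The libraries carried the label of macrophages, and all 7 macrophage markers (*Csf1r*, *Adgre1*, *Itgam*, *Cd68*, *Fcgr1*, *Mertk* and *Spi1*) were above 1 TPM in each group, with summed levels of 3052 to 5778 TPM in YS lines, 5980 to 7022 in FL lines and 5111 to 5731 in BM lines. Summed markers of T cells, B cells, fibroblasts, dendritic cells and mast cells stayed between 0 and 1.42 TPM in all groups, and those of monocytes between 0.04 and 6.13 TPM. Exceptions were hemoglobin transcripts in BM line 2 (*Hba-a1*, 215 TPM, against 8.62 TPM in YS line 1) and the granulocyte gene *S100a8* in FL lines (10.5 to 25.1 TPM). Of the 7 granulocyte markers in the table, 6 were under 1 TPM in all FL lines, with 5 at 0. Summed endothelial markers were 5.34 to 56.0 TPM in YS lines and 18.9 to 51.8 TPM in FL lines, against 0.08 to 1.70 in BM lines. In FL lines this was mostly *Kdr* (17.4, 17.5 and 50.4 TPM), with *Pecam1* at 0.10 to 0.25 TPM and *Cdh5* at 1.26 to 1.38 TPM. In YS lines 1 to 3 *Kdr* was 0.29, 16.1 and 54.35 TPM, *Pecam1* 4.91, 8.17 and 0.29 TPM, and *Cdh5* at most 1.36 TPM. The part of these transcripts in the results was not tested. Some results with BM lines are given with and without BM line 2, and others only with it.

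Schlafen proteins share an N-terminal core that binds and, in several members, cleaves RNA. They are grouped by length into short proteins (Slfn1 and Slfn2), intermediate proteins (Slfn3 and Slfn4) and long proteins (Slfn5, Slfn8 and Slfn9) that carry a helicase-like C-terminal part. The founding members were found as regulators of thymocyte growth and quiescence, and many family genes are induced by type I interferon, the antiviral cytokine that acts through a DNA element called ISRE. In myeloid cells, *Slfn4* is known as a gene of activated macrophages and of infiltrating myeloid cells, and *Slfn2* as a gene needed for the survival of resting T cells and monocytes.

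The genes lie together on mouse chromosome 11. In the RefSeq order, 10 genes named Schlafen formed 1 run with 0 other protein-coding genes between them: *Slfn5os* (antisense to *Slfn5*), *Slfn5*, *Slfn9*, *Slfn8*, the pseudogene *Slfn10-ps*, *Slfn2*, *Slfn1*, *Slfn4*, *Slfn3* and *Slfn14*. Sequence before the transcription start is shown for the 4 members whose levels set the groups most apart or that share a motif, taken from RefSeq promoter windows of GRCm38.p6 (the build of the deposited table was not given in the sources used here). The ISRE core was searched as GAAANNGAAA on both strands of the 250 bases before each start, and its letters are in capitals. The *Slfn8* run was chr11:83020811-83021060 on the minus strand, the *Slfn9* run chr11:82991831-82992080 on the minus strand and the *Slfn4* run, of 236 bases, chr11:83174936-83175171 on the plus strand. Of *Slfn5* only 30 bases around the core are shown, chr11:82951937-82951966 on the plus strand, since its window lies within the RefSeq gene.
Slfn8: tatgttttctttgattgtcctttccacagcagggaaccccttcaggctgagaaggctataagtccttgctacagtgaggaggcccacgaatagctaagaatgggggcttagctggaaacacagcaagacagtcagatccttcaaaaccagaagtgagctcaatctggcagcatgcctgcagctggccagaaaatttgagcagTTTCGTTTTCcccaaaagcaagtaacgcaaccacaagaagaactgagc
Slfn9: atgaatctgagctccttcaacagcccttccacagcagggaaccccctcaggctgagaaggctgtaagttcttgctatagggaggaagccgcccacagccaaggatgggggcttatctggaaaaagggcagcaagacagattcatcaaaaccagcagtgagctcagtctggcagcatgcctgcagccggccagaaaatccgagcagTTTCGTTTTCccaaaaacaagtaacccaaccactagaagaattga
Slfn5: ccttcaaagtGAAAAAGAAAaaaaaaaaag
Slfn4: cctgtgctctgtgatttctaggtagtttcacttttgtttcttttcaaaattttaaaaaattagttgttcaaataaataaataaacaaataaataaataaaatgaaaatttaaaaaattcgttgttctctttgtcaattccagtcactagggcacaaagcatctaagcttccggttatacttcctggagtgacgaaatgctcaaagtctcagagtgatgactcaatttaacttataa
The core was found once in the *Slfn5* window, within the RefSeq gene, beginning 155 bases before the start used for that window. Before *Slfn8* it was found once, 48 bases before its first start, the same site being 136 bases before a second start. Before *Slfn9* it was found once (45 bases). Those are the 3 long members among the 7. No match was found in the windows of *Slfn1*, *Slfn2*, *Slfn3* and *Slfn4*, or in that of *Slfn14*, a cluster gene outside the 7. This says only that these letters are not in those windows. Over all 32851 promoter windows of this length, 2.98% held the core. The core letters before *Slfn8* and *Slfn9* were the same, unlike those of *Slfn5*, which lay in an A-rich run. The windows of *Slfn8* and *Slfn9* were identical at 80.2% of aligned positions (210 of 262), whereas the other 20 pairs of members lay between 45.5% and 53.4%. The GAS core TTCNNNGAA, the element of interferon gamma signaling, was in 7.02% of windows and in none of the members', and the PU.1 core GAGGAA, bound by a macrophage lineage factor, was in 23.3% of windows and among the members only in that of *Slfn9* (170 bases before the start).

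Of the 7 members, 6 passed the filter on low values (1 TPM or more in 3 or more libraries), as did 11753 genes in all, and *Slfn1* did not. The 7 genes together made up 502 to 1480 TPM in YS lines (mean 962 ± 492, SD, n = 3), 583 to 910 TPM in FL lines (705 ± 179) and 334 to 542 TPM in BM lines (444 ± 105). The makeup of these sums differed between groups. In BM lines *Slfn2* alone was 69.5 to 73.9% of the sum, against 40.7 to 64% in FL lines and 38.6 to 54.6% in YS lines. *Slfn4* was 7.41 to 33.3% of the sum in YS lines, 0.716 to 33.1% in FL lines and 0.084 to 0.234% in BM lines.

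**Figure D1:**
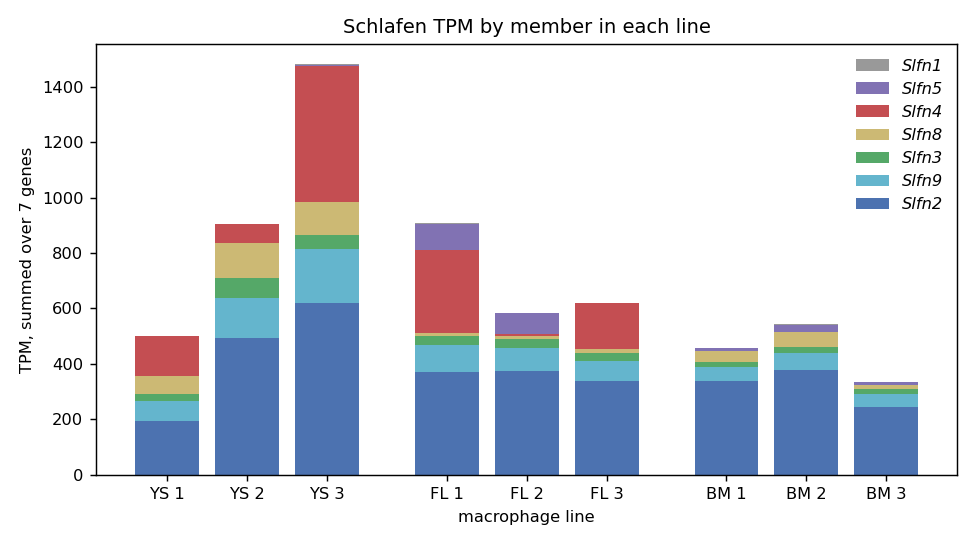
TPM of the 7 Schlafen genes stacked for each of the 9 lines (bars, vertical axis in TPM from 0). *Slfn2* is the base of every bar, *Slfn4* adds up to 33.3% in YS lines and at most 0.234% in BM lines, and *Slfn5* is visible mainly in FL lines 1 and 2.

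Since TPM is scaled by length, members can be ranked within a group by their mean TPM. In YS lines the order was *Slfn2* (435), *Slfn4* (234), *Slfn9* (136), *Slfn8* (103), *Slfn3* (51.2), *Slfn1* (1.57) and *Slfn5* (0.703), and only the step from *Slfn3* to *Slfn1* separated all lines of neighbouring genes. In FL lines the order was *Slfn2* (360), *Slfn4* (157), *Slfn9* (84.3), *Slfn5* (57.5), *Slfn3* (32.2), *Slfn8* (11.9) and *Slfn1* (1.39), with lines separated at the steps from *Slfn2* to *Slfn4*, from *Slfn3* to *Slfn8* and from *Slfn8* to *Slfn1*. In BM lines *Slfn2* (320) was followed by *Slfn9* (52.9), *Slfn8* (36.8), *Slfn3* (19.3), *Slfn5* (14.5), *Slfn4* (0.710) and *Slfn1* (0.103), with lines separated between *Slfn2* and *Slfn9* and between *Slfn5* and *Slfn4*. Lines count as separated here where the ranges of the 2 genes over the 3 lines do not meet. Within single libraries, each step held in 3 of 3 lines, with exceptions that held in 2 of 3. These were *Slfn4* over *Slfn9* and *Slfn1* over *Slfn5* in YS lines, and *Slfn4* over *Slfn9* and *Slfn5* over *Slfn3* in FL lines. In BM lines they were *Slfn8* over *Slfn3* and *Slfn3* over *Slfn5*. *Slfn2* thus led in each group, and the places of all other members changed, most for *Slfn4*, *Slfn5* and *Slfn8*.

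**Figure D2:**
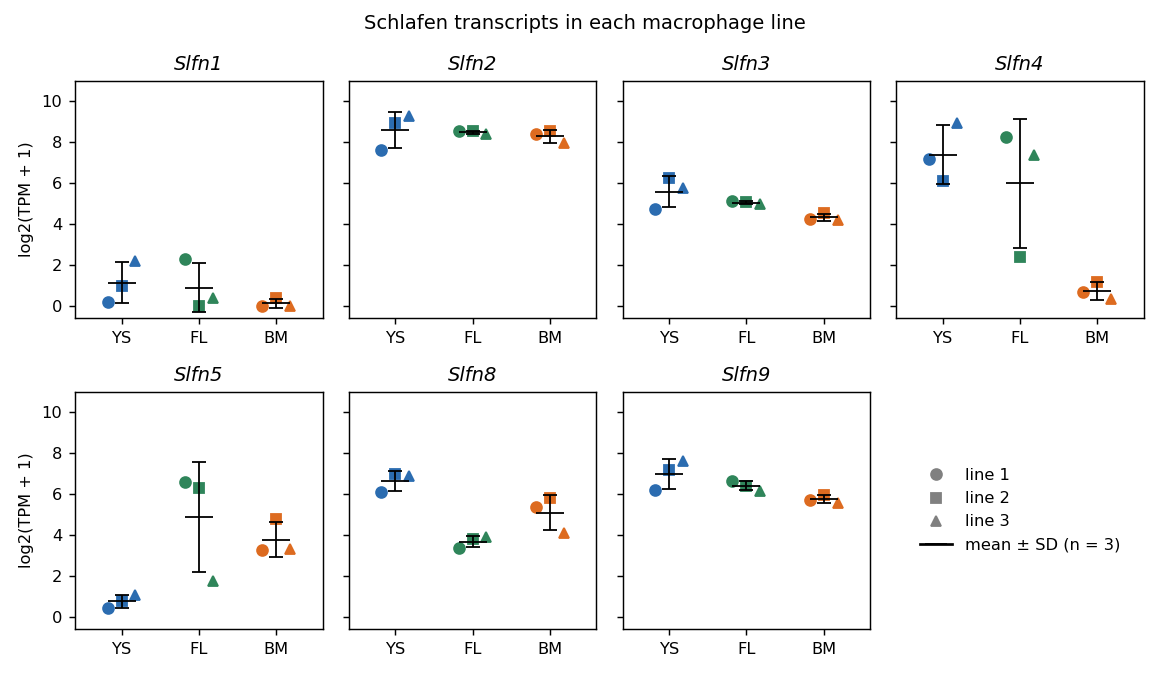
Level of each Schlafen gene as log2(TPM + 1) in the 3 YS, 3 FL and 3 BM lines (symbols mark lines 1 to 3, bars the mean ± SD, n = 3). *Slfn4* lies near 0 in BM lines, *Slfn5* is low in all YS lines and in FL line 3, and *Slfn8* is lowest in FL lines.

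Among the short members, *Slfn2* was the most abundant and varied least between groups. Its level was 194, 494 and 618 TPM in YS lines 1 to 3, 370, 373 and 338 TPM in FL lines and 338, 377 and 246 TPM in BM lines. All 3 groups overlapped. The log2 difference was 0.31 between YS and BM lines (no test), 0.19 between FL and BM lines (95% interval -0.67 to 1.05, adjusted p = 0.770, limma) and 0.11 between YS and FL lines (-0.75 to 0.98, adjusted p = 0.870). The first of these intervals reached a 2-fold rise, and so did not set *Slfn2* at an equal level. YS lines differed among themselves, with a highest level 3.20 times the lowest, against 1.10 times in FL lines and 1.53 times in BM lines.

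*Slfn1*, the other short member and a regulator of thymocyte growth, was at or near the bottom of the table. Its TPM was 0.16, 0.99 and 3.57 in YS lines, 3.83, 0 and 0.33 in FL lines and 0, 0.31 and 0 in BM lines. Only YS line 3 and FL line 1 were above 1 TPM, and those were also the YS line and the FL line with the highest *Slfn4*. The groups overlapped, and *Slfn1* was not tested.

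Among the intermediate members, *Slfn4* was abundant in all YS lines and in FL lines 1 and 3, and was near or below 1 TPM in BM lines. It reached 143, 67.0 and 492 TPM in YS lines 1 to 3 (mean 234 ± 227, n = 3), against 0.58, 1.27 and 0.28 TPM in BM lines (0.710 ± 0.508). The lowest YS line was 52.8 times the highest BM line, and the log2 difference on the TPM + 1 scale was 6.67, or 6.89 without BM line 2. FL lines were at 301, 4.17 and 166 TPM (157 ± 149). All FL lines were above all BM lines, but FL line 2 was only 3.28 times the highest BM line, and the FL level ranged over 72.2-fold between lines. The log2 difference was 5.26 between FL and BM lines. YS and FL lines overlapped and differed by 1.41. Of all tested genes, 99.9% had a smaller SD between FL lines than *Slfn4* (3.17 on the log2 scale), and 97.4% had a smaller SD between YS lines (1.44). The difference from BM lines depends on the pseudocount, since BM lines lie near 1 TPM: it was 7.89 with a pseudocount of 0.1 and 5.21 with 4.

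*Slfn3*, the other intermediate member and a gene known from T cells and gut epithelium, varied in smaller steps. The TPM of *Slfn3* was 25.9, 74.6 and 53.1 in YS lines, 33.8, 32.5 and 30.4 in FL lines and 18.3, 22.2 and 17.4 in BM lines. YS and FL lines were each all above BM lines, while YS and FL lines overlapped. The log2 difference was 1.24 between YS and BM lines (no test). It was 0.71 between FL and BM lines, which was not called (95% interval -0.02 to 1.44, adjusted p = 0.157, limma), and 0.53 between YS and FL lines (-0.20 to 1.26, adjusted p = 0.326). The p-value between FL and BM lines depended on the YS lines that shared the fit: it was 0.0060 (adjusted) with only the 6 libraries compared and 0.0117 without YS line 1, at the same difference, which is under 2-fold and so not called. Leaving out YS line 1 gave 0.95 from FL to YS lines (adjusted p = 0.0371), also under 2-fold. FL lines were close together, with an SD of 0.075 on the log2 scale that was larger than that of only 14.2% of tested genes.

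Among the long members, *Slfn5* was lowest in YS lines, the group in which *Slfn4* was highest. Its human counterpart is a nuclear protein, induced by interferon, that is known to restrain transcription of other interferon-induced genes. Its TPM was 0.33, 0.70 and 1.08 in YS lines, 93.9, 76.3 and 2.40 in FL lines and 8.46, 26.1 and 8.76 in BM lines. All YS lines were below all FL and all BM lines, and FL lines ranged over 39.1-fold, with FL line 3 below every BM line. *Slfn5* was lower in YS than in BM lines by a log2 difference of -3.02 (no test). It was lower in YS than in FL lines, with a log2 fold change of -4.12 (SE 1.12, 95% interval -6.69 to -1.56, adjusted p = 0.0699, limma), which passed the threshold narrowly. That call was lost without YS line 1 or 2, FL line 1 or 2, or any 1 of the BM lines (adjusted p = 0.104 to 0.199), and with only the 6 libraries compared (adjusted p = 0.193). The value ranged from -5.68 (without FL line 3) to -3.27 (without FL line 1), and was -5.14 with a pseudocount of 0.1 and -2.98 with 4. Between FL and BM lines the log2 fold change was 1.11 (-1.46 to 3.67, adjusted p = 0.538, limma). It was 2.66 without FL line 3 (adjusted p = 0.0118), 0.26 without FL line 1 (adjusted p = 0.914) and 0.40 without FL line 2 (adjusted p = 0.864). Without BM line 2 it was 1.60 (adjusted p = 0.461). The antisense gene *Slfn5os* was listed at 0 in all lines.

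*Slfn8* was the member that separated FL lines from both other groups. It is a long Schlafen gene whose mouse protein is close to Slfn9. The TPM of *Slfn8* was 66.4, 125 and 117 in YS lines, 9.16, 12.9 and 13.6 in FL lines and 39.9, 54.1 and 16.3 in BM lines. The 3 groups did not overlap, with FL lines lowest and YS lines highest. *Slfn8* was higher in YS than in FL lines with a log2 fold change of 2.97 (SE 0.42, 95% interval 2.02 to 3.92, adjusted p = 0.0146, limma). This call was kept in all 18 alternatives tried, with values of 2.71 to 3.26. It was lower in FL than in BM lines with a log2 fold change of -1.41 (SE 0.42, 95% interval -2.36 to -0.46, adjusted p = 0.0459). The latter call was lost without FL line 1 (adjusted p = 0.129), BM line 1 (0.149) or BM line 2 (0.136), and the value was -1.06 without BM line 2. The YS lines were above BM lines by a log2 difference of 1.56 (no test).

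*Slfn9*, the third long member, followed a graded order. Its TPM was 71.9, 142 and 195 in YS lines, 98.2, 84.0 and 70.8 in FL lines and 51.7, 61.3 and 45.8 in BM lines. YS and FL lines were all above BM lines and overlapped with each other. The log2 difference was 1.25 between YS and BM lines (no test), 0.66 between FL and BM lines (95% interval -0.07 to 1.39, adjusted p = 0.189, limma) and 0.59 between YS and FL lines (-0.15 to 1.32, adjusted p = 0.284). As for *Slfn3*, the adjusted p between FL and BM lines was lower with only the 6 libraries compared (0.0225) and without YS line 1 (0.0283), at the same difference, which is under 2-fold. Leaving out YS line 1 gave 0.99 from FL to YS lines (adjusted p = 0.0476), also under 2-fold.

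*Slfn8* and *Slfn9*, whose upstream sequences are alike, were compared within each library as a ratio of TPM, which no scaling between libraries can move. This ratio and the next were chosen after the values had been seen and were not tested. *Slfn8* over *Slfn9* was 0.923, 0.877 and 0.599 in YS lines, 0.0933, 0.154 and 0.192 in FL lines and 0.770, 0.882 and 0.357 in BM lines. All FL lines were below all other lines. *Slfn3* over *Slfn9* was 0.360, 0.524 and 0.272 in YS lines, 0.344, 0.387 and 0.429 in FL lines and 0.354, 0.362 and 0.381 in BM lines. This ratio overlapped in all groups.

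Short reads of paralogs can be assigned to the wrong gene. Of the 75-base windows of the longest GENCODE M21 transcript, the share also found in another gene was 7.52% for *Slfn8*, 6.06% for *Slfn9*, 8.37% for *Slfn3*, 3.24% for *Slfn4*, 1.70% for *Slfn2*, 1.64% for *Slfn5* and 0% for *Slfn1*. *Slfn8* shared 5.36% of its windows with *Slfn10-ps* and 3.96% with *Slfn9*. *Slfn10-ps* itself, with 11.5% of windows shared, had a TPM of 26.9, 33.6 and 41.9 in YS lines, 64.4, 55.6 and 52.7 in FL lines and 36.1, 36.5 and 33.7 in BM lines. It was thus highest in FL lines, where *Slfn8* was lowest, with log2 fold changes of 0.68 over BM lines (adjusted p = 0.0195, limma) and -0.76 of YS against FL lines (adjusted p = 0.0437), both under 2-fold and so not called. Mean levels were 11.9 TPM (*Slfn8*) and 57.6 TPM (*Slfn10-ps*) in FL lines and 36.8 and 35.4 TPM in BM lines, and the part of read assignment in the result for *Slfn8* was not tested. Of the remaining symbols, *Slfn14* was at most 0.08 TPM and *Slfnl1* was listed at 0 in all lines.

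In the comparison of YS with BM lines, on which the family was chosen, 4 of the 6 members that passed the filter were more than 2-fold higher in YS lines without overlap (*Slfn3*, *Slfn4*, *Slfn8* and *Slfn9*) and 1 was lower (*Slfn5*). The shares over all genes tested were 7.5% and 5.53%, and nothing is read from the difference. A gene was called where the limma test gave an adjusted p under 0.1 and the change was more than 2-fold. Of the 5 members tested between FL and BM lines, 0 were called higher and 1 lower (*Slfn8*), where 6.01% and 4.3% of all genes were called; at an unadjusted p under 0.05 the counts were 0 and 1. Of the 5 members tested between YS and FL lines, 1 was called higher (*Slfn8*) and 1 lower (*Slfn5*), where 1.95% and 1.85% of all genes were called.

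**Figure D3:**
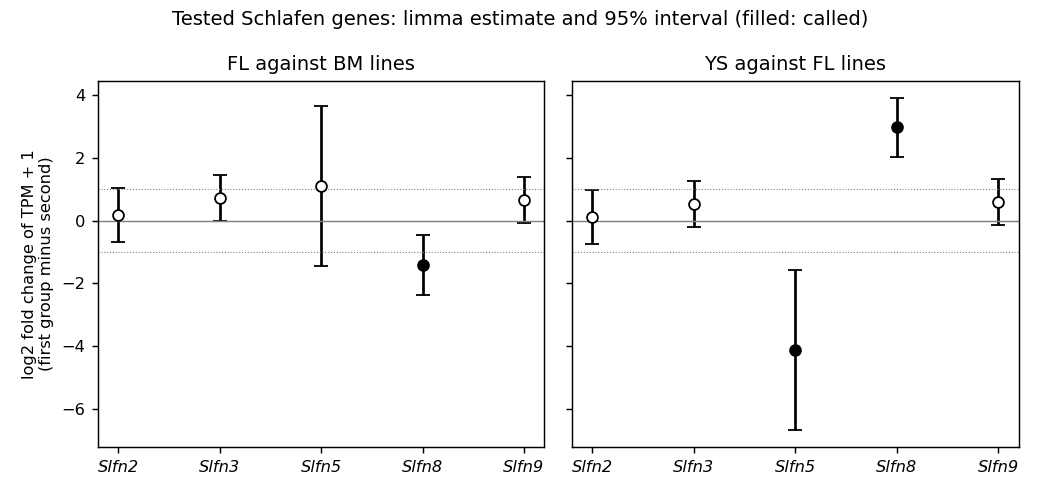
Log2 fold change of TPM + 1 for the 5 tested Schlafen genes in FL against BM lines (left) and YS against FL lines (right), with 95% intervals from limma, filled where called, and dotted lines at a 2-fold change. *Slfn8* is called in both panels in opposite directions (-1.41 and 2.97), and *Slfn5* has the widest intervals.

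Interferon-induced genes were followed beside the family as a list of 36 antiviral effectors and sensors, all of which were tested. Between YS and BM lines 26 were called higher and 0 lower (29 and 0 at an unadjusted p under 0.05), where 7.57% and 5.22% of all genes were called, and the median log2 fold change of the list was 1.94 against 0.11 over all genes. The largest were *Iigp1* (a GTPase that attacks parasite vacuoles), with a log2 fold change of 5.40 (adjusted p = 0.0048), *Mx1* (an antiviral GTPase) with 5.27 (adjusted p = 0.0029), *Ifi44* with 4.89 (adjusted p = 0.0233) and *Zbp1* (a sensor of Z-form nucleic acid) with 4.54 (adjusted p = 0.0155). *Mx1* had a TPM of 39.2, 68.4 and 105 in YS lines, 44.3, 6.55 and 23.3 in FL lines and 0.22, 3.22 and 0 in BM lines. The count was 16 without BM line 3 and 29 without BM line 2.

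Between FL and BM lines 13 of the 36 were called higher and 0 lower (17 and 0 at an unadjusted p under 0.05). Of all genes, 6.01% and 4.3% were called. The median was 1.28 against 0.09 over all genes. The largest were *Iigp1* (4.46), *Mx1* (3.55), *Zbp1* (3.53) and *Rsad2*, an inhibitor of viral replication (2.58). That count moved with the filter and with single lines: it was 7 with no filter, 3 without FL line 1 (*Bst2*, *Iigp1* and *Mx1*) or BM line 3 (*Ifi204*, *Iigp1* and *Mx1*), 4 without BM line 1 (*Bst2*, *Ifi204*, *Iigp1* and *Mx1*), 5 without FL line 3 (*Bst2*, *Ifi47*, *Iigp1*, *Mx1* and *Zbp1*) and 18 without BM line 2. Between YS and FL lines 0 were called in either direction by limma (1 higher and 0 lower at an unadjusted p under 0.05). Here 1.95% of all genes were called higher and 1.85% lower. The median was 0.72 against 0.02 over all genes, and 1 gene of the list (*Oasl1*) was called without FL line 1. The genes named here for single lines left out were chosen after their values had been seen.

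Line by line, the mean log2(TPM + 1) of the 36 genes was 5.83, 6.96 and 7.62 in YS lines, 6.73, 4.93 and 6.20 in FL lines and 4.43, 5.51 and 3.37 in BM lines. FL line 2, the FL line with the lowest *Slfn4*, was also the FL line with the lowest mean, below BM line 2. BM line 2, with a mean above FL line 2, had *Slfn4* at 1.27 TPM against 4.17 TPM there. Among YS lines, *Slfn4* was lower in YS line 2 (67.0 TPM, mean 6.96) than in YS line 1 (143 TPM, mean 5.83). *Slfn5* was highest in the line with the highest mean within each group (1.08 TPM in YS line 3, 93.9 TPM in FL line 1 and 26.1 TPM in BM line 2) and followed the order of the means among YS lines. Between groups and between FL lines 2 and 3 it did not follow them: it was at most 1.08 TPM in YS lines, whose means were 5.83 or more, and was 76.3 TPM in FL line 2 against 2.40 TPM in FL line 3, which had the higher mean. Nor did *Slfn5* follow the means between BM lines 1 and 3, at 8.46 and 8.76 TPM with means of 4.43 and 3.37. These are side by side values of 9 lines, with no test.

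**Figure D4:**
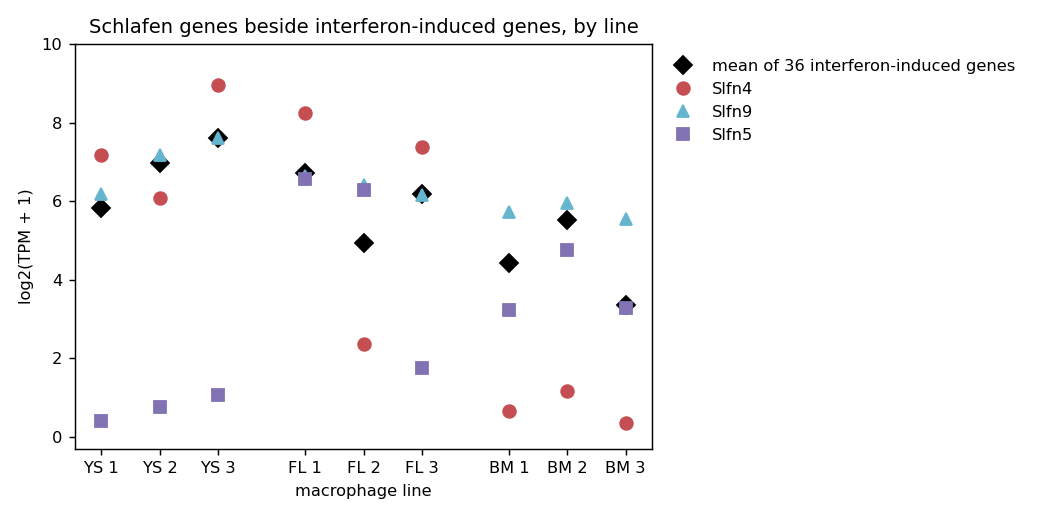
Log2(TPM + 1) of *Slfn4*, *Slfn5* and *Slfn9* and the mean of 36 interferon-induced genes in each of the 9 lines. *Slfn4* drops with the mean in FL line 2, is lower in YS line 2 than in YS line 1 although the mean is higher there, and lies well below the mean in all BM lines, whereas *Slfn5* is far below the mean in all YS lines and in FL line 3.

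A list of 14 genes of interferon signaling held receptors, kinases, transcription factors, *Ifnb1* and feedback inhibitors. By limma, 3 were called higher in YS than in BM lines and 0 lower, where 7.57% and 5.22% of all genes were called. Between FL and BM lines 1 was called higher and 0 lower, where 6.01% and 4.3% of all genes were called. Nothing is read from that count, which lies near its share. Between YS and FL lines 0 were called in either direction, where 1.95% and 1.85% of all genes were called. At an unadjusted p under 0.05 the counts in these comparisons were 7 and 1, 5 and 1, and 2 and 0. The called genes were *Irf8*, a transcription factor of the macrophage lineage (log2 fold change 1.54 in YS and 1.11 in FL over BM lines), and, in YS over BM lines, the feedback inhibitor *Socs1* (1.40) and the receptor-associated kinase *Tyk2* (1.12). *Ifnb1*, the gene of interferon beta, had a TPM of 0.60, 1.90 and 4.95 in YS lines, 3.20, 0 and 1.91 in FL lines and 0.21, 0.20 and 0 in BM lines, and was not called. Its lowest FL line was again FL line 2. The receptor genes *Ifnar1* (56.0 ± 15.2 TPM in YS, 62.2 ± 8.94 in FL and 56.7 ± 1.61 in BM lines, n = 3 each) and *Ifnar2* were not called.

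The neighbours of the cluster were examined to see whether the differences reached beyond it. Of the 10 protein-coding genes on each side in RefSeq order, all 20 were in the table and 10 were tested. Only *Ccl5*, a chemokine gene induced in activated macrophages, was called, with a log2 fold change of 4.57 in YS and 3.39 in FL over BM lines. Over all genes, 7.57% and 6.01% were called higher in these comparisons, so nothing is read from the count of calls. At an unadjusted p under 0.05 (limma), 3 of the 10 were higher and 0 lower in YS than in BM lines. Between FL and BM lines 3 were higher and 1 lower. The log2 fold change was positive for 9 of the 10 in both comparisons. *Taf15* was not called (0.90 in YS and 0.73 in FL over BM lines), but all YS and FL lines were above all BM lines. The TPM of *Ccl5* was 61.0, 138 and 263 in YS lines, 174, 16.6 and 62.2 in FL lines and 1.27, 20.3 and 2.54 in BM lines, so that FL line 2 and BM line 2 overlapped. No neighbour was called between YS and FL lines (limma, 0 higher and 1 lower at an unadjusted p under 0.05). Of all genes, 1.95% and 1.85% were called there. The nearest tested gene before the cluster, *Nle1*, had a log2 fold change of 0.62 in YS and 0.34 in FL over BM lines, and was not called.

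**Figure D5:**
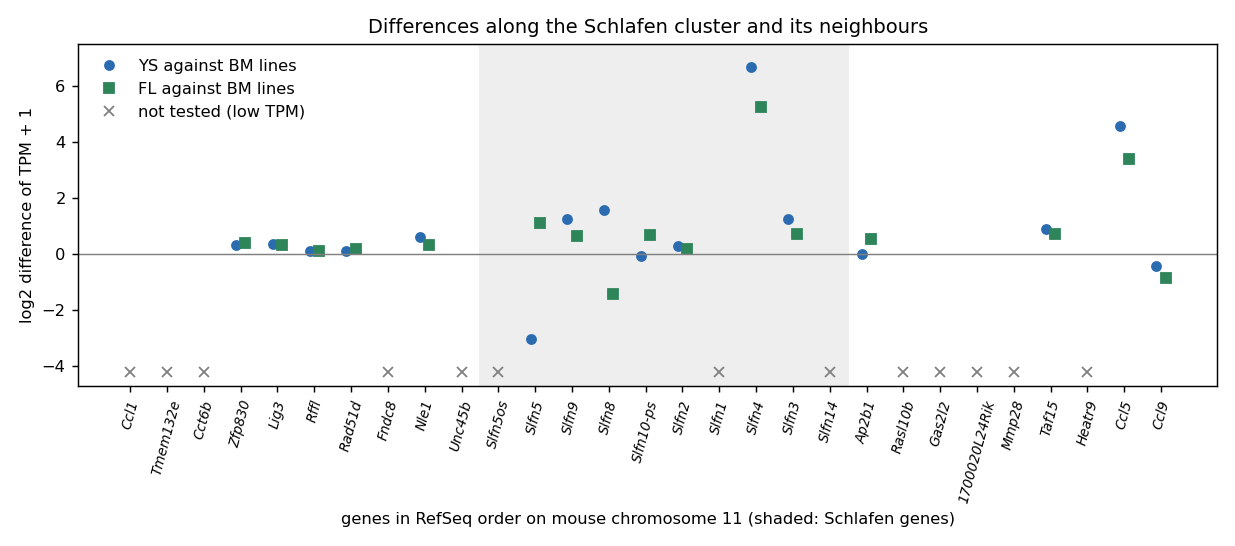
Log2 difference of TPM + 1 for YS against BM lines (circles) and FL against BM lines (squares) along the gene order of the Schlafen cluster (shaded) with protein-coding genes on each side; crosses mark genes too low to test. The differences vary in size and sign within the cluster, and among the neighbours plotted only *Ccl5* (4.57 and 3.39) is called.

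The genes whose profile over the 9 lines was most like that of each member were taken from all tested genes by the root mean square difference of log2(TPM + 1) after centring each gene on its mean. For *Slfn4*, whose own root mean square around its mean was 3.31, they were *Gm21188* (1.20), *Mx1* (1.34), *Gm12250* (1.37), *Ly9* (1.37) and *Apol9a* (1.5). All 5 were lowest among FL lines in FL line 2, which the choice by likeness over the same 9 lines favours, so nothing is read from it. *Gm21188*, for example, was at 73.2, 0.47 and 56.8 TPM in FL lines and 35.6, 50.5 and 119 TPM in YS lines. For *Slfn5* they were *Pmepa1* (1.01), *Selenbp1* (1.05) and *Mapk12* (1.17), against 2.20 for *Slfn5* itself. These 3 were lowest among FL lines in FL line 3, which the same choice favours. *Pmepa1* was at 12.3, 17.3 and 2.16 TPM in FL lines 1 to 3. For *Slfn8* they included *Acyp2* (0.549) and *Nr4a1* (0.633), against 1.31 for *Slfn8*. *Acyp2* was low, at 0 TPM in all FL lines and in BM lines 1 and 3 and at most 5.19 TPM elsewhere. *Nr4a1*, an immediate early nuclear receptor gene, had a TPM of 9.40, 10.3 and 14.6 in YS lines, 0.79, 1.5 and 3.76 in FL lines and 3.98, 5.79 and 5.45 in BM lines.

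*Slfn3* and *Slfn9* were the pair of members closest to each other. *Slfn9* ranked 3 among all tested genes in likeness to *Slfn3* (0.236), after *Gm6634* (0.197) and *Pydc4* (0.214). *Slfn3* ranked 10 in likeness to *Slfn9*, whose nearest were *Slc13a2* (0.134), *Pydc4* (0.172) and *Dck* (0.183). *Gm6634* (1.0 to 7.24 TPM), *Pydc4* (0 to 2.62 TPM) and *Slc13a2* (0 to 3.66 TPM) were low, and this scale understates fold changes of low genes. *Slfn2* ranked 285 in likeness to *Slfn3* (0.445) and 308 in likeness to *Slfn9* (0.408). It was itself nearest to *Gm8979* (0.187), *Ubxn11* (0.190, also low at 0.56 to 3.44 TPM) and *Tmem120b* (0.192). *Slfn4* and *Slfn5* were far apart (4.61), with *Slfn5* at rank 11666 of the tested genes in likeness to *Slfn4*.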

How the data were processed

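RNA-seq was done on 9 macrophage lines, and groups and line numbers came from the sample labels. Per the submitters' processing notes the authors used Trim Galore 0.6.6, STAR 2.7.9a and RSEM 1.3.3 on poly(A), directional single reads of 75 nt, and deposited 1 table of TPM, which keeps no depth, so no counting error is given. Genome build and annotation were not given in the sources used here. Raw counts, on which the study ran DESeq2, were not used here. From the TPM, log2(TPM + 1) entered 1 limma fit (version 3.58.1, R 4.3.3) of all 9 libraries with an intensity trend. Benjamini-Hochberg adjustment ran over the 11753 genes that reached 1 TPM in 3 or more libraries, and calls used the study's thresholds (adjusted p under 0.1, more than 2-fold). The fit was first tested on simulated data. A fold change on this scale understates that of low genes. Other steps used Python 3.11.15 with pandas 2.3.3 and Biopython 1.88. The members, lists, neighbours and likeness rule were chosen with earlier results of these data known. Named genes were all members, other Schlafen symbols, up to 4 called genes per list and direction by size, called neighbours, and the 5 (*Slfn4*) or 3 (other tested members) most alike profiles. Promoter windows came from RefSeq (GRCm38.p6), and transcripts from GENCODE M21. As alternatives, pseudocounts of 0.1 and 4, no filter or one of 5 TPM, quantile or median-of-ratios scaling, a fit with no trend, fits of 6 libraries, a line number block and the omission of each line were tried. Some genes that these rules name are not reported here.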

Additional observations from a re-analysis of the deposited data

How the results depend on the processing

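The number of Schlafen genes called between FL and BM lines (1) ranged from 0 to 2 when single lines were left out, being 0 without FL line 1, BM line 1 or BM line 2 and 2 without FL line 3. That between YS and FL lines (2) ranged from 1 to 2 when single lines were left out, and was 1 with no filter and 1 with only the 6 libraries compared. The *Slfn4* difference between YS and BM lines (6.67) was 7.89 with a pseudocount of 0.1 and 5.21 with a pseudocount of 4, and 5.90 to 7.33 when single lines were left out. The counts of interferon-induced genes called ranged from 16 to 34 (YS against BM lines), 3 to 18 (FL against BM lines) and 0 to 1 (YS against FL lines) when single lines were left out, and the second was 7 with no filter. The *Slfn2* difference between YS and FL lines, which was not called, was -0.06 without YS line 2 and ranged from -0.22 (without YS line 3) to 0.62 when single lines were left out. The causes of these changes were not tested. Of the single members' fold changes, *Slfn8* kept its call between YS and FL lines in 18 of 18 alternatives, *Slfn8* between FL and BM lines lost it in 3 of 18, and *Slfn5* between YS and FL lines lost it in 9 of 18 without a change of direction.

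The median log2 fold change of all genes was 0.11 between YS and BM lines and -0.01 after quantile normalization, which moved the genes called from 890 higher and 614 lower to 724 and 763, and those between FL and BM lines from 706 and 505 to 592 and 593. Between YS and FL lines 229 and 217 genes were called, against 47 and 34 with only the 6 libraries compared, 144 and 136 with a pseudocount of 4, 139 and 185 with a filter of 5 TPM, and 99 to 270 higher and 69 to 348 lower when single lines were left out.

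Lines share the numbers 1 to 3 across groups, but nothing in the labels pairs them. Deviations from the group mean of lines with the same number had correlations of -0.12 to 0.09, against -0.14 to 0.12 for other numbers, and not every line correlated best with its own number. With the line number as a replicate block, 7 in place of 13 interferon-induced genes were called between FL and BM lines, and the block changed no call of a Schlafen gene. The intervals of *Slfn3* and *Slfn9* between FL and BM lines held both 0 and a 2-fold rise in the fit of all 9 libraries, and their adjusted p fell to 0.0060 and 0.0225 with only the 6 libraries compared, with no call gained since both are under 2-fold.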
